A study of Mus musculus with 8 samples.

Results

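Insulin and the insulin-like growth factors (IGFs) signal through the receptors Insr and Igf1r, through the adaptor proteins Irs1 and Irs2 that these receptors phosphorylate, and, outside the cell, under the control of the IGF-binding proteins (Igfbp genes). The 10 genes described here are Igf1r, Insr, Irs1, Irs2, Igfbp2, Igfbp3, Igfbp4, Igfbp5, Igfbp6 and Igfbp7, taken by name from a table of raw counts for 55276 gene symbols. All 10 had counts in every library and all 10 passed the filter on low counts. The cells came from the esophageal epithelium of C57BL6 mice aged 14 to 15 weeks, for which the labels name no genetic change or treatment, and were live (DAPI negative) and positive for integrin beta-1, a surface protein of basal cells. They were sorted by Cyto-ID, a dye of autophagic vesicles, into a dim fraction (Cyto-ID Low, 4 libraries) and a bright fraction (Cyto-ID High, 4 libraries). Each of 4 animals, named Female1, Female2, Male1 and Male2, gave 1 library of each fraction. The labels do not state whether a library pools cells of more than the named animal.

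Bound by ligand, both receptors activate their kinase domain and phosphorylate IRS proteins, which then recruit phosphatidylinositol 3-kinase (PI3K) and lead to Akt, to the exclusion of FoxO factors from the nucleus and to the restraint of autophagy by mTORC1. A parallel branch runs through Shc, Grb2 and Ras to the MAP kinases. The binding proteins hold IGFs in the extracellular space, prolong their life and limit or deliver them to Igf1r, and several of them are cleaved by dedicated proteases that free the ligand. In skin, another stratified epithelium, Igf1r and Igfbp3 are known mainly from the basal layer, which IGF from the underlying stroma reaches.

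Libraries held 26285150 to 28599954 counts in Cyto-ID Low and 27486049 to 29301054 in Cyto-ID High. Levels are given as CPM (counts set to a common library total) after TMM scaling, a correction for library composition whose factors were 1.16 to 1.30 in Low and 0.679 to 0.944 in High. As a check of the labelled cell type, all 9 basal markers fixed for this tissue (Krt5, Krt14, Trp63 and others) were present in both fractions and lower in High, with sums of 21006 to 24906 CPM in Low and 2778 to 4482 CPM in High. Of 9 suprabasal markers 8 were higher in High (sums of 8334 to 24853 CPM in Low and 136066 to 236172 CPM in High), and Crnn stayed at 0.257 to 2.24 CPM in all libraries. The 6 proliferation markers were all lower in High. The part of these layer and cell-cycle differences in the results below was not tested, and in bulk RNA fewer cells of a type and less RNA per cell cannot be told apart. Fibroblast markers, summed over 9 genes, ran from 337 to 530 CPM in Low and from 41.4 to 507 CPM in High, and 1 of the 9 (Dcn) was lower in High past the threshold. Sums for endothelium, smooth muscle, skeletal muscle, leukocytes and Schwann cells were at most 78.1 CPM in any library, and in the High library of Male2 all 6 of these non-epithelial sums were the lowest of the 8 libraries. Apart from Dcn, the only marker in these lists past the threshold was Acta2 of smooth muscle, lower in High (log2 fold change −1.54, adjusted p 0.0178 by edgeR).

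The stretch just upstream of the transcription start is shown for 5 of the genes, because the adaptors Irs1 and Irs2 share a sequence there and because Igfbp3, Igfbp5 and Igf1r stand for a binding protein, or the receptor, that fell. Each line gives the 150 bases before the most upstream RefSeq start of the GRCm38.p6 assembly, on the strand of the gene, in lower case with matches in capitals. The motifs searched on both strands were the E-box CACGTG, bound by basic helix-loop-helix factors such as those of the MiT/TFE family, the GC box GGGCGG of Sp factors, the core promoter runs TATAAA and TATATA, and the forkhead run TGTTTAC. None of these motifs overlaps another in the stretches shown.
Irs1, chr1:82291440-82291589, minus strand: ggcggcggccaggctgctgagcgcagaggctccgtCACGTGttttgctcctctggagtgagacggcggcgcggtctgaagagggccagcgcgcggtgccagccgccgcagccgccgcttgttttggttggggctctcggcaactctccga
Irs2, chr8:11008930-11009079, minus strand: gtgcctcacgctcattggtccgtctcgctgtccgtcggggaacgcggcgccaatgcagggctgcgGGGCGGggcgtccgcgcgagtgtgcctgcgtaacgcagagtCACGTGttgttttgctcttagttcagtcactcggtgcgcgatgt
Igf1r, chr7:67952107-67952256, plus strand: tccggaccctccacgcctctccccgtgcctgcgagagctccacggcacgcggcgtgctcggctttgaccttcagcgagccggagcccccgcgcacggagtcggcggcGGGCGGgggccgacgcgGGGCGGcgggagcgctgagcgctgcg
Igfbp3, chr11:7213924-7214073, minus strand: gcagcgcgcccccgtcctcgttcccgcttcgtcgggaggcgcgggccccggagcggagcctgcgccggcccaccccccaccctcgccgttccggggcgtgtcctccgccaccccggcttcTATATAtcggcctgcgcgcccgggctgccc
Igfbp5, chr1:72874866-72875015, minus strand: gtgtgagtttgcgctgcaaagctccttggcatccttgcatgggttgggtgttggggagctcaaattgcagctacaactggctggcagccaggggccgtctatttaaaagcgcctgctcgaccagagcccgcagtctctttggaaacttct

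Within the 250 bases before the start, RefSeq windows were matched for 9 of the 10 genes, Insr not being among them. The E-box CACGTG was found in 3 of the 9 (Irs1, Irs2 and Igfbp2) and in 6.04% of the windows of 27025 genes. It began 115 bases before the start of Irs1 and 44 bases before that of Irs2. The longest runs common to both adaptor windows had 10 bases and were GTCACGTGTT, which holds the E-box, and TGTTTTGCTC, which begins within the E-box of Irs1 and just downstream of that of Irs2. The GC box was found in 5 of the 9 genes (Igf1r, Irs1, Irs2, Igfbp2 and Igfbp7) and in 33.0% of all windows, and Igf1r had a copy 43 and another 26 bases before its start. TATATA lay 30 bases before the start of Igfbp3 (5.56% of all windows hold it). TATAAA lay 28 bases before the start of Igfbp4 and farther upstream, on the other strand, in Igfbp6 (13.0% of all windows). The forkhead run was in none of the 9 and in 3.06% of all windows. The motifs were chosen after these sequences had been read, so the counts among the 9 genes cannot be read as enrichment over all windows. A match of letters is a description of the sequence and does not show that a factor bound there in these cells.

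The genes lie on several chromosomes, but some binding protein genes are neighbours. Igfbp2 (chr1:72824503-72852474, plus strand) and Igfbp5 (chr1:72857932-72874884, minus strand) face each other tail to tail with 5457 bp between them. Igfbp3 (chr11:7206086-7213923, minus strand) lies 3539 bp from Igfbp1 (chr11:7197782-7202546, plus strand) in the same arrangement. These positions are those of GENCODE M21 on GRCm38, the build named in the submitters' processing notes. In that annotation exons of Igfbp7 overlap exons of Polr2b, those of Irs1 overlap Gm9747 and those of Irs2 overlap 9530052E02Rik, each on the other strand. No source used here states strand-specific counting, and the values of these 3 genes may hold reads of the overlapping gene.

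The main comparison asked how these genes differed between cells of high and low autophagic vesicle content. In Cyto-ID High 8 of the 10 genes were lower and 0 were higher, while 25.3% of all 17344 tested genes were called lower and 23.4% higher (edgeR's quasi-likelihood test with sex as a covariate, Benjamini-Hochberg adjusted p under 0.05). Insr and Igfbp6 did not pass, where 48.7% of all tested genes passed in either direction. With the animal as a block the same 8 genes were lower and 0 higher, against 28.5% lower and 25.4% higher among all genes. The median log2 fold change of the 10 was −2.05, that of all tested genes −0.09, and all 8 called genes were lower in 4 of 4 animals, as were 34.4% of all genes. For 7 of the 10 genes the highest High library lay below the lowest Low library, which was so for 24.9% of all tested genes, and for 0 of the 10 the reverse held, against 23.6%.

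**Figure D1:**
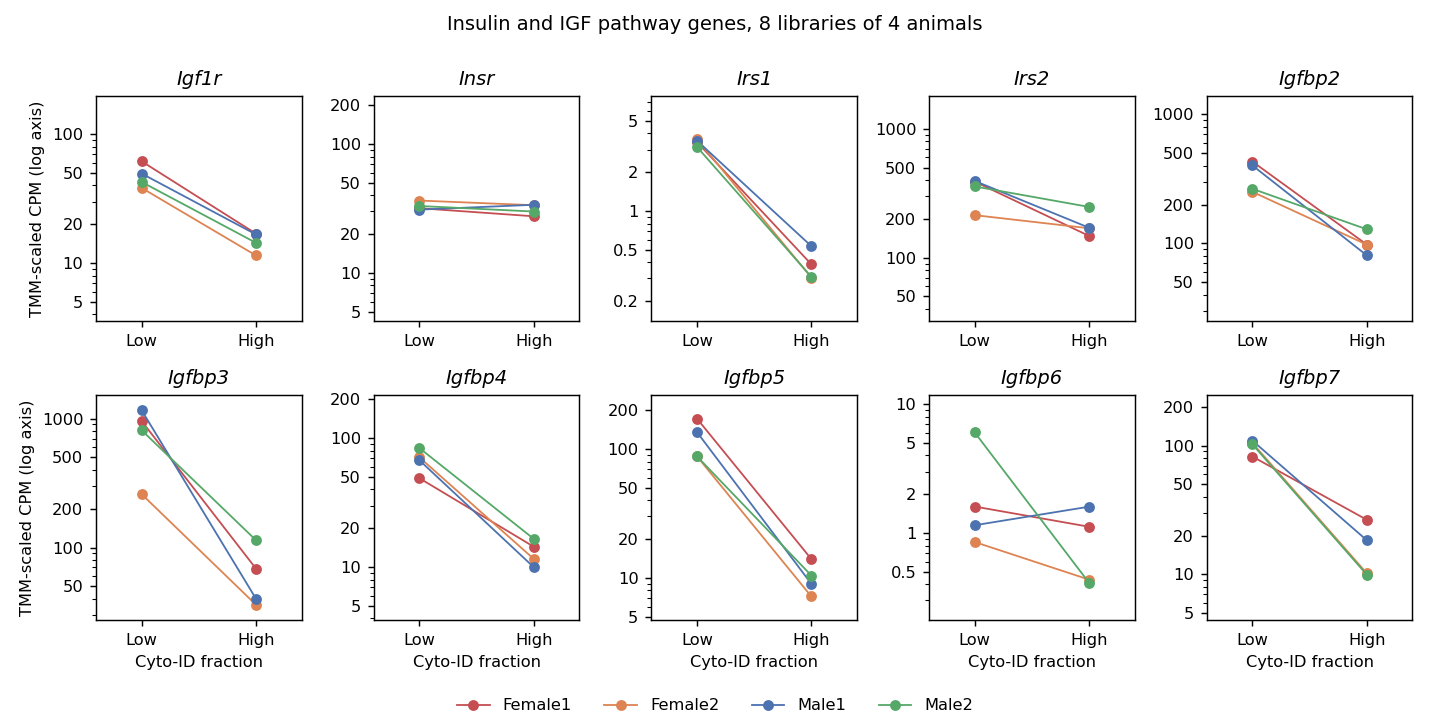
TMM-scaled CPM of the 10 genes (log axis, each panel spanning the same ratio) in the Cyto-ID Low and High library of each animal, with lines joining the libraries of an animal. Igf1r, Irs1 and the binding proteins other than Igfbp6 fell in every animal, Irs2 fell with overlap between the fractions, and Insr stayed between 27.5 and 36.4 CPM.

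The receptors parted. Igf1r encodes the IGF receptor, the main signalling receptor of both IGFs. Its level in the Low libraries of Female1, Female2, Male1 and Male2 was 61.6, 38.3, 49.5 and 42.6 CPM, and it was 16.9, 11.5, 16.7 and 14.4 CPM in the High fraction of the same animals. The fractions did not overlap, and every animal lost a similar share, with High minus Low differences of −1.86 to −1.56 log2 CPM. The fitted log2 fold change was −1.69 (standard error 0.20, adjusted p 9.24e-05 by edgeR), or 3.23-fold lower in High.

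Insr encodes the insulin receptor, which also pairs with Igf1r in hybrid receptors. It was at 31.8, 36.4, 31.0 and 33.0 CPM in the Low libraries of Female1, Female2, Male1 and Male2, and at 27.5, 33.5, 33.8 and 29.9 CPM in the High libraries. The ranges overlapped, and the gene was lower in 3 animals and higher in Male1. Its log2 fold change was −0.08 (SE 0.13, adjusted p 0.642 by edgeR). With library totals as the only scaling, it was −0.64 (SE 0.15, adjusted p 0.00427 by edgeR), and the median of all tested genes under that scaling was also −0.64, a shift of −0.55 from the TMM scaling. That scaling called 49.1% of all tested genes lower and 12.6% higher. Insr thus lay at the median of all genes under both scalings.

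A ratio of 2 genes within a library does not depend on how libraries are scaled. Per exon length, the log2 ratio of Igf1r to Insr was 0.67, −0.22, 0.39 and 0.08 in the Low libraries of Female1, Female2, Male1 and Male2, so that both receptor transcripts stood at similar levels. In High it was −0.99, −1.84, −1.31 and −1.35. The ratio was lower in High in 4 of 4 animals, by 1.60 ± 0.12 on the log2 scale (SD, n = 4), and the difference per animal ran from −1.69 to −1.43. On average Insr exceeded Igf1r 2.59-fold in High, where in Low Igf1r exceeded Insr 1.17-fold.

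**Figure D2:**
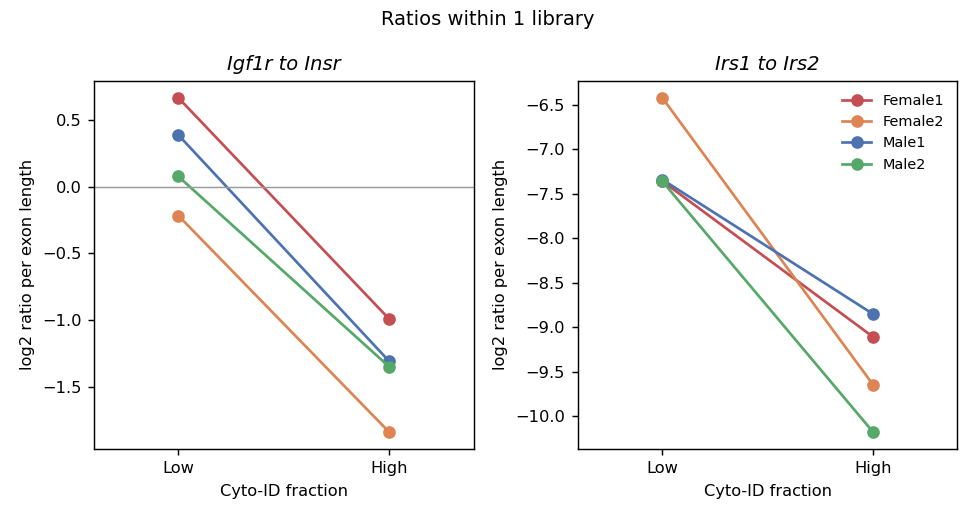
Log2 ratio per exon length of Igf1r to Insr (left) and of Irs1 to Irs2 (right) in the Low and High library of each animal, with lines joining the libraries of an animal. Both ratios were lower in High in all 4 animals, and the lines of the receptor ratio are nearly parallel.

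Both IRS adaptors were lower in Cyto-ID High, at very unequal levels. Irs2, the adaptor tied most closely to insulin action in liver and beta cells, was at 389, 214, 394 and 357 CPM in the Low libraries of Female1, Female2, Male1 and Male2, and at 147, 169, 171 and 247 CPM in High. It was lower in High in every animal, but High Male2 lay above Low Female2, and the difference per animal spread from −1.40 in Female1 to −0.34 log2 CPM in Female2. Irs2 had a log2 fold change of −0.89 (SE 0.21, adjusted p 0.00646 by edgeR).

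Irs1, the adaptor through which IGF and insulin drive growth in many tissues, had 111, 131, 113 and 104 counts in Low, or 3.43, 3.60, 3.51 and 3.14 CPM. In High it had 10, 7, 14 and 6 counts, or 0.386, 0.305, 0.534 and 0.309 CPM. The Low libraries lay close together, the High libraries were all lower, and the gene fell 8.77-fold (log2 fold change −3.13, SE 0.29, adjusted p 2.68e-05 by edgeR). Only 1.30% of all tested genes had a lower fold change. The High libraries rest on 6 to 14 counts each, so the size of the fall is imprecise.

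Per exon length Irs2 exceeded Irs1 on average 139-fold in Low and 698-fold in High. The log2 ratio of Irs1 to Irs2 was −7.36 in Low Female1, −7.34 in Low Male1, −7.36 in Low Male2 and −6.42 in Low Female2. In High it ran from −10.2 in Male2 to −8.85 in Male1. The ratio was lower in High in 4 of 4 animals, by 2.33 ± 0.83 on the log2 scale (SD, n = 4).

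Of the 6 binding proteins 5 fell, where 25.3% of all tested genes were called lower. Igfbp3 and Igfbp5 had the lowest fold changes of the 10 genes. Igfbp3, which carries most circulating IGF and is also made by keratinocytes, was at 956, 259, 1159 and 811 CPM in the Low libraries of Female1, Female2, Male1 and Male2. In High it was at 68.5, 35.9, 40.0 and 114 CPM. Low Female2 stood below the other Low libraries, yet above every High library. The log2 fold change was −3.61 (SE 0.48, adjusted p 0.000215 by edgeR), a 12.2-fold fall, and 0.530% of all tested genes had a lower value.

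Igfbp5, a binding protein that also attaches to extracellular matrix, was at 172, 87.8, 135 and 87.7 CPM in Low and at 14.0, 7.18, 9.0 and 10.4 CPM in High. The fractions lay far apart in every animal, with differences of −3.90 to −3.06 log2 CPM, and the log2 fold change was −3.57 (SE 0.30, adjusted p 1.84e-05 by edgeR). Its neighbour Igfbp2, which can bind integrins through an RGD sequence, was at 432, 251, 403 and 265 CPM in Low and at 98, 97.9, 80.8 and 129 CPM in High. It fell by 1.74 on the log2 scale (SE 0.24, adjusted p 0.000236 by edgeR). Both neighbours were lower in High in all 4 animals.

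Igfbp4, a soluble inhibitor of IGF action, was at 49, 71.1, 67.5 and 83.9 CPM in Low and at 14.4, 11.6, 9.99 and 16.6 CPM in High, with −2.36 as log2 fold change (SE 0.21, adjusted p 2.42e-05 by edgeR). Igfbp7 encodes a related secreted protein with low affinity for IGFs, abundant in vessels and stroma. It was at 82.2, 105, 109 and 102 CPM in Low and at 26.6, 10.2, 18.5 and 9.98 CPM in High. Its log2 fold change was −2.62 (SE 0.32, adjusted p 0.000118 by edgeR). Both genes separated the fractions without overlap.

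The High libraries of Igfbp7 had the same order as the sums of all 6 non-epithelial marker lists and of the proliferation markers, and the reverse order of the suprabasal sum. Of these, the fibroblast sum was at 507, 162, 360 and 41.4 CPM in the High libraries of Female1, Female2, Male1 and Male2. In the Low libraries the fibroblast sum was 491, 383, 337 and 530 CPM. Igfbp7 did not follow it there, being lowest in Female1 (82.2 CPM) and highest in Male1 (109 CPM), where that sum was lowest. The High minus Low difference of Igfbp7 was −1.63, −3.35, −2.56 and −3.35 log2 CPM in Female1, Female2, Male1 and Male2. The High order was not particular to Igfbp7, since the protease Pappa and the ligand Igf1 had it too. The part of RNA from non-epithelial cells in the level of Igfbp7 was not tested.

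Igfbp6, which prefers IGF2 as its ligand, was scarce. It had 52, 31, 37 and 200 counts in the Low libraries of Female1, Female2, Male1 and Male2, or 1.61, 0.852, 1.15 and 6.04 CPM, and 29, 10, 42 and 8 counts in High, or 1.12, 0.435, 1.60 and 0.412 CPM. The fractions overlapped, and Male1 was higher in High. Its log2 fold change of −1.25 did not pass (SE 0.63, adjusted p 0.135 by edgeR), and without the Low library of Male2 it was −0.41 (adjusted p 0.635 by edgeR). Of the 9 fibroblast markers 3 (Dcn, Dpt and Fbn1) were highest in that library among the Low libraries, Dpt at 17.0 CPM against 1.80 to 6.98 CPM in the other libraries of both fractions. The other 6, collagen genes among them, were highest in Low Female1. The part of stromal RNA in the level of Igfbp6 was not tested. With no filter on low counts Igfbp6 passed (log2 fold change −1.29, adjusted p 0.00302 by edgeR), in a table of 35027 genes of which 13.5% were called lower.

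**Figure D3:**
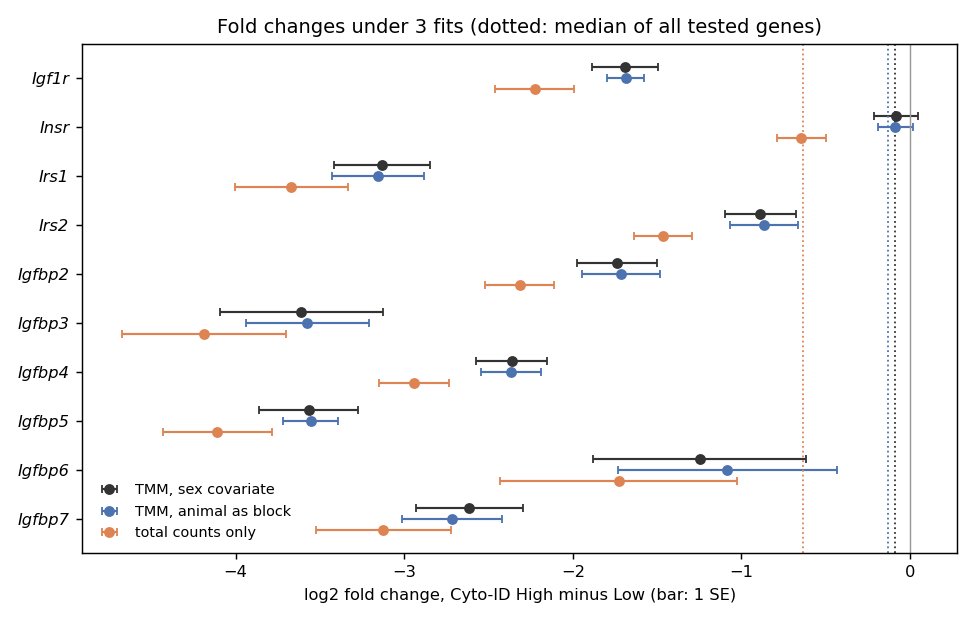
Log2 fold changes of Cyto-ID High minus Low for the 10 genes, with bars of 1 SE, under TMM scaling with sex as a covariate, TMM scaling with the animal as a block, and scaling by total counts only. The dotted lines mark the median of all tested genes in each fit, and Insr is the 1 gene within 1 SE of that median in all 3 fits.

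Levels of different genes were compared per kb of exon. In Cyto-ID Low the order of means began with Igfbp3 at 254 ± 123 and Igfbp2 at 183 ± 50 CPM per kb (SD, n = 4), whose ranges overlapped. It went on with Igfbp7 at 82.4 ± 9.9 and Irs2 at 53.5 ± 13.4. Igfbp3 also overlapped Igfbp7, with a lowest value of 82.8 in Female2, and in that library Igfbp7 lay above it. Igfbp5 at 20.1 ± 6.8 and Igfbp4 at 15.4 ± 3.3 overlapped with each other. Igf1r at 2.86 ± 0.61, Insr at 2.40 ± 0.17 and Igfbp6 at 2.17 ± 2.19 could not be ordered beyond their ranges, and Irs1 was last at 0.374 ± 0.022. In Cyto-ID High Igfbp2 came first at 54.9 ± 10.8, above Irs2 at 29 ± 6.9 and Igfbp3 at 20.6 ± 11.5, which overlapped, as did Igfbp3 and Igfbp7 at 13.5 ± 6.5. Igfbp4 at 2.97 ± 0.66, Insr at 2.27 ± 0.22 and Igfbp5 at 1.69 ± 0.48 followed, each overlapping the next, then Igf1r at 0.884 ± 0.151 and Igfbp6 at 0.802 ± 0.518, which overlapped, and Irs1 at 0.0419 ± 0.0117. Insr and Igf1r, whose ranges overlapped in Low, did not overlap in High.

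The binding protein transcripts can also be read as shares of their sum. Summed per exon length, the 6 genes came to 337 to 718 CPM per kb in Low and to 77.0 to 120 CPM per kb in High. Igfbp2 made up 27.3% to 40.4% of that sum in Low and 51.2% to 68.7% in High. Igfbp3 made up 47.1% in Female1, 51.6% in Male1 and 49.2% in Male2 but 24.6% in Female2 in Low, and 14.9% to 30.3% in High. Igfbp7 made up 10.5% to 25.7% in Low and 6.87% to 21.2% in High, and its 25.7% in Low Female2 lay above the share of Igfbp3 there. The share of Igfbp5 was 2.77% to 4.42% in Low and 1.45% to 2.25% in High, without overlap. These shares describe the 6 genes and were not tested.

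**Figure D4:**
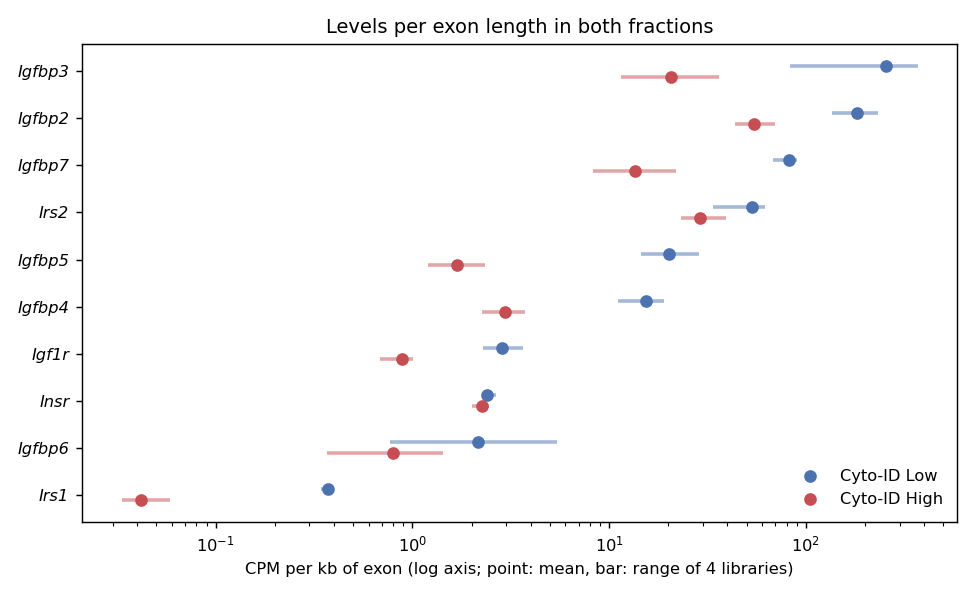
Level per kb of exon on a log axis for the 10 genes in Cyto-ID Low and High, with points for the mean and bars for the range of the 4 libraries of a fraction. By mean, Igfbp3 and Igfbp2 lead in Low, where the range of Igfbp3 overlaps that of Igfbp7. Igfbp2 alone leads in High, where Insr lies above Igf1r.

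The genes whose log2 CPM followed each of the 10 most closely over the 8 libraries were taken among tested genes with a mean of at least 5 CPM. They were Atxn1 and Adgre5 for Igf1r (Pearson r 0.999 and 0.997), Slc23a2 and Cep131 for Irs1 (0.997 and 0.996), and Arf2 and Zyx for Irs2 (0.990 and 0.987). For the binding proteins they were Asxl1 and Rhno1 for Igfbp2 (0.994 and 0.993), Pqlc1 and Grwd1 for Igfbp3 (0.997 and 0.996), Tmem9 and Flot2 for Igfbp4 (0.998 and 0.997), Soga1 and Cdt1 for Igfbp5 (both 0.998), and Apoe and Man2a2 for Igfbp7 (both 0.998). Igfbp6 was followed by Dpt and Fn1 (0.968 and 0.928), genes of connective tissue matrix. The closest to Insr, Zfp106 and Fzd7, reached 0.889 and 0.884. The 8 libraries share the split into fractions, so a high r can come from that split alone.

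Of 64 further genes of insulin and IGF signalling 55 were tested, of which 15 were higher and 14 lower in Cyto-ID High, and their median log2 fold change was −0.02. Among all tested genes 23.4% were higher and 25.3% lower, so these counts lie near the background. Under total counts only, 15 of the 55 changed sign, all from higher to lower values, and 9 were called higher and 28 lower, where 12.6% of all tested genes were called higher and 49.1% lower. The counts by role below are to be read beside these same shares.

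Ligands were scarce in both fractions. Igf1, the IGF made mainly by liver and stroma, had 2.87, 2.03, 1.68 and 1.96 CPM in Low and 3.78, 1.31, 1.87 and 0 CPM in High, with a log2 fold change of −0.40 (SE 0.72, adjusted p 0.694 by edgeR). Igf2 had at most 6 counts in a library, and Ins1 and Ins2 had 0 counts in all 8. A count of 0 allows up to 3 counts, or 0.0825 to 0.154 CPM, as far as counting error goes. Of the further receptors Igf2r, which clears IGF2 and sorts lysosomal enzymes, fell from 97.0 ± 8.4 to 70.6 ± 7.0 CPM (SD, n = 4 each), by 0.46 on the log2 scale (SE 0.13, adjusted p 0.0170 by edgeR), and the orphan relative Insrr had at most 2 counts. Igfbp1, the liver binding protein next to Igfbp3, had at most 1 count, and so had Igfbpl1. Igfals, whose product stabilises IGF complexes in serum, had 1.73 ± 0.35 (Low) and 1.21 ± 0.37 CPM (High) and did not pass (adjusted p 0.192 by edgeR), although it did under total counts only.

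Among proteases of the binding proteins and their inhibitors, 4 of 5 were tested, 2 were lower and 0 higher. Pappa, a metalloprotease that cleaves Igfbp4 and Igfbp5, was at 19.1, 18.6, 18.5 and 13.8 CPM in Low and at 2.39, 1.18, 1.45 and 0.514 CPM in High. It was lower in all 4 animals, by 3.67 on the log2 scale (SE 0.33, adjusted p 2.50e-05 by edgeR). Htra1, a serine protease, fell from 72.5 ± 5.5 to 14.2 ± 6.4 CPM (log2 fold change −2.36, SE 0.29, adjusted p 0.000124 by edgeR). Stc1 and Stc2, inhibitors of Pappa, were at 0.0514 to 1.45 CPM and at 0 to 0.957 CPM and did not pass.

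Of 10 further adaptors 8 were tested, 1 was higher and 4 lower. Gab1, a docking protein of several receptor kinases that recruits PI3K and Ptpn11, rose from 46.9 ± 8.6 to 193 ± 53 CPM (log2 fold change 2.04, SE 0.23, adjusted p 7.57e-05 by edgeR). Dok1, which dampens receptor signalling, fell from 5.81 ± 1.39 to 1.05 ± 0.50 CPM, or −2.45 in log2 terms (SE 0.36, adjusted p 0.000388 by edgeR). Irs3 and Irs4 had at most 1 count in a library.

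Of 12 genes of PI3K, Akt and Gsk3, 5 were higher and 1 lower, where 23.4% and 25.3% of all tested genes were. With total counts as the only scaling, 3 were higher and 6 lower, where 12.6% and 49.1% of all tested genes were. Pik3r3, a regulatory subunit of PI3K, rose from 4.4 ± 0.42 to 14.7 ± 3.8 CPM (log2 fold change 1.73, SE 0.20, adjusted p 0.000102 by edgeR). Akt1, the central kinase of the branch, had 163 ± 19 (Low) and 115 ± 35 CPM (High) and did not pass (adjusted p 0.0544 by edgeR). It did with the animal as a block (log2 fold change −0.54, adjusted p 0.00983 by edgeR), which raised the lower calls of the 12 genes to 4, and under total counts only (−1.11, adjusted p 0.000188 by edgeR). Of 6 lipid and Akt phosphatases 1 was higher and 3 lower. Inpp4b fell from 9.80 ± 2.64 to 0.992 ± 0.355 CPM, or −3.30 in log2 terms (SE 0.32, adjusted p 3.33e-05 by edgeR).

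Of 4 FoxO factors, which Akt inactivates, 1 was higher, 1 lower and 2 did not pass. Foxo1 fell from 83.9 ± 9.7 to 43.2 ± 4.9 CPM (log2 fold change −0.96, SE 0.14, adjusted p 0.000426 by edgeR). Foxo3 rose from 84.8 ± 7.5 to 163 ± 33 CPM (log2 fold change 0.95, SE 0.17, adjusted p 0.00142 by edgeR), and both calls held under total counts only. In the Ras and MAP kinase branch 5 of 11 genes were higher and 0 lower, where 23.4% and 25.3% of all tested genes were. With total counts as the only scaling, 3 were higher and 3 lower, where 12.6% and 49.1% of all tested genes were. Mapk3 rose from 69.0 ± 9.3 to 197 ± 57 CPM, by 1.51 (SE 0.21, adjusted p 0.000245 by edgeR). Of 7 inhibitors of the receptors 2 were higher and 2 lower. Socs3, which binds the insulin receptor and IRS proteins, fell from 366 ± 84 to 67.3 ± 20.8 CPM, or −2.45 in log2 terms (SE 0.26, adjusted p 5.19e-05 by edgeR), and the phosphatase Ptprf was at 842 ± 75 and 1128 ± 203 CPM (adjusted p 0.0777 by edgeR).

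**Figure D5:**
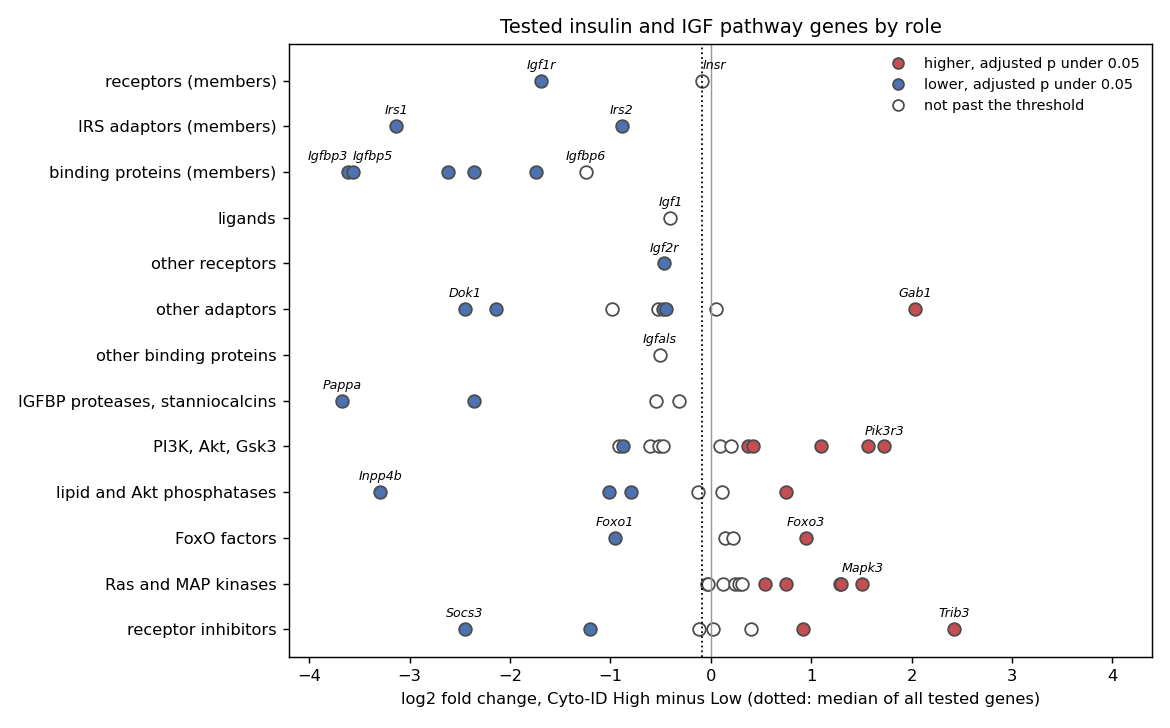
Log2 fold changes of Cyto-ID High minus Low for the 65 tested insulin and IGF genes by role, filled where the adjusted p was under 0.05. Pappa, Igfbp3, Igfbp5, Inpp4b and Irs1 have the lowest values, all at or below −3.13.

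Whether the difference between fractions depended on sex was tested as an interaction. Of the 10 genes 0 passed, with adjusted p of 1.00 by edgeR for each, against 0.0% of all 17344 genes, of which 19 had an unadjusted p under 0.05. A block by animal also gave 0 calls, and 38 genes with such a p. Both counts are far below the share of 0.05 that uniform p-values would give. The interaction test was thus conservative here, and its lack of calls says little about sex. The male minus female difference of log2 fold changes ran over the 10 genes from −1.16 (SE 1.28) for Igfbp6 and −0.55 (SE 0.62) for Igfbp7 to 0.38 (SE 0.61) for Irs1, and was −0.14 (SE 0.94) for Igfbp3. With 2 animals of each sex these standard errors leave differences of several-fold in Igfbp3 undetectable.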

How the data were processed

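RNA of 8 sorted libraries, 4 per Cyto-ID fraction, was sequenced in bulk. The deposited file holds raw counts by gene symbol, as integers whose totals differ between libraries. STAR 2.7.3, DESeq2 and GRCm38 are named without their roles in the submitters' processing notes. The annotation, the counting tool, the use of strand and any filter are not given in the sources used here. Columns were matched to samples by animal and fraction, and groups follow the label for the fraction. Nothing states molecular identifiers, so limits from counts cover counting error only.

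Counts were fitted over the whole table in R 4.3.3 with edgeR 4.0.16 (filterByExpr by fraction, TMM, glmQLFit and glmQLFTest, sex as a covariate), and p-values were adjusted by Benjamini-Hochberg over 17344 genes with a threshold of 0.05. All tests were two-sided. Log2 CPM were computed with 2 as prior count. The standard error is the absolute fold change divided by the root of F. Exon lengths and positions came from GENCODE M21, and upstream sequences from RefSeq on GRCm38.p6. Motifs were chosen after the sequences had been read.

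The members, lists and tests were chosen with earlier results of these data known. Genes named beside the 10 were all ligands, further receptors and further binding proteins, and in each other role the tested gene with the highest mean CPM and the one with the largest absolute fold change, and the closest followers of each member. Stc1, Stc2, Irs3 and Irs4 fall outside that rule and were named after their values were seen. Some genes that the rule names are not reported here. Alternatives were RLE factors, total counts, other filters, robust dispersion, DESeq2 1.42.0, limma-voom (limma 3.58.1), no covariate, the animal as a block, and libraries left out. Same-named libraries were taken as pairs, since each animal's cells were sorted into both fractions. Deviations from the fraction means correlated over genes by −0.02 to 0.43 within animals and by −0.37 to 0.35 between animals. A simulation gave 200 genes a log2 fold change of 1.5, and the fit recovered 83% of this set. It also called 11 unaltered genes, with 16905 tested. In the real counts 8440 of 17344 genes were called, far more than the simulation altered. The simulated rates therefore do not measure how well the fit performs on these libraries.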

Additional observations from a re-analysis of the deposited data

Results flagged for a closer look

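Dixon's criterion at 95%, applied to the highest and lowest of the 4 libraries in 58 sets of values, was exceeded in 3 sets, and about 1 set in 20 exceeds it by chance alone. Igfbp6 in Cyto-ID Low was at 6.04 CPM in Male2, where the other Low libraries had 0.852, 1.15 and 1.61 CPM. Pappa, the protease of Igfbp4 and Igfbp5, was at 13.8 CPM in the same library, below 18.5, 18.6 and 19.1 CPM in the others, and still above every High library. The log2 ratio of Irs1 to Irs2 per exon length was −6.42 in Low Female2, where the other Low libraries had −7.36, −7.36 and −7.34. Irs2 was the lowest of the Low libraries there (214 CPM) and Irs1 the highest (3.60 CPM).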

How the results depend on the processing

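Igf1r, Irs1, Irs2, Igfbp2, Igfbp3, Igfbp4, Igfbp5 and Igfbp7 were called lower under each of the alternatives in which they were tested. With at least 10 counts in every library Irs1 and Igfbp6 were left out, so 7 genes were called. With total counts only or with no filter 9 were called, adding Insr (−0.64, adjusted p 0.00427) and Igfbp6 (−1.29, adjusted p 0.00302). Over all alternatives the edgeR, DESeq2 or limma adjusted p ran from 0.00427 to 0.967 for Insr and from 0.00302 to 0.778 for Igfbp6. Of all genes 8440 were called, and 7269 to 8106 after dropping 1 library at a time. A replicate block by animal gave 9336 (4400 higher, 4936 lower), and the block changed the call of none of the 10 genes. Among all genes, scaling by totals alone called 2194 higher and 8514 lower. When each library was left out, the High minus Low difference of the Igf1r to Insr ratio ran from −1.75 to −1.44 and that of Irs1 to Irs2 from −2.52 to −2.08. Leaving out both libraries of Female2 or of Male2 was added after the data were seen and left 8 genes called. Irs1 in High and Igfbp6 rested on few counts.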
